A study of Mus musculus with 244 samples.

Results

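The genes described here are 32 genes of the endoplasmic reticulum (ER) stress response, followed across single macrophages of the mouse aortic arch before and after the regression of atherosclerosis was set off by transplantation. They were chosen by symbol, and all 32 were found among the 24475 genes of the table. Proteins bound for the cell surface, the lysosome or secretion fold in the ER, and when unfolded protein builds up there the membrane sensors IRE1 (Ern1), PERK (Eif2ak3) and ATF6 start a programme called the unfolded protein response. IRE1 splices the mRNA of the transcription factor Xbp1, PERK slows translation and favours that of Atf4, and ATF6 is cut to release a transcription factor. Their targets make more chaperones, disulfide isomerases and parts of the machinery that extracts and degrades misfolded protein, known as ER-associated degradation, and under lasting stress they include the pro-apoptotic factor Ddit3 (CHOP). In plaque macrophages the response is known from cholesterol loading of the ER membrane.

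All arches were grown in mice without Apoe (Apoe-/-), kept for 16 weeks on food high in fat. Baseline cells were taken from such arches directly. Regression cells came from arches that had been grafted into wild-type (WT) mice on chow and were removed 3 days later, so a cell could stem from the donor or from the recipient, and the labels do not say which. The groups therefore differ in Apoe genotype of the host, diet and surgery together, and may also differ in the origin of the cells. These cannot be told apart. The level of Apoe in the cells is given below. The labels state no age, sex, strain or number of mice. Sorted cells carried CD45, CD11b and F4/80.

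The 244 libraries, each from 1 cell, were taken as 241 cells, because 3 pairs of baseline libraries were near copies (r of 0.992 to 0.997, against at most 0.654 for other pairs) and were averaged. Values are RPKM, reads scaled by gene length and library size. Leaving out 3 regression cells in which under 1000 genes reached an RPKM of 1 kept 125 baseline and 113 regression cells. Depth could be read from the spacing of low values in 78 baseline libraries (median 1.04 M reads) and 65 regression libraries (median 0.859 M reads). Sample numbers form 5 stretches of consecutive numbers, each of 1 condition: baseline 21 to 92 (69 cells) and 112 to 167 (56 cells), and regression 1 to 20 (20 cells), 93 to 111 (18 cells) and 168 to 244 (75 cells). The labels do not tie stretches to chips or days, and since each holds 1 condition, stretch and condition cannot be told apart within it. At least 3 of 8 macrophage markers were listed, meaning at RPKM of 1 or more, in 124 of 125 baseline and 113 of 113 regression cells. No cell listed 3 markers of plasma cells, which are rich in ER proteins, and their markers Mzb1, Tnfrsf17 and Pou2af1 were listed in no cell. Of the same list, Jchain was listed in 1 regression cell and Derl3 in 1 baseline cell. Sdc1 was listed in 9 baseline and 15 regression cells, and its mean was higher in regression by 0.48 and in 6 of 6 stretch pairings. At least 3 neutrophil markers were listed in 5 baseline and 14 regression cells, and at least 3 dendritic cell markers in 7 and 0. The summed log2 level of 6 neutrophil markers ran from 0.00 to 46.7 at baseline and to 33.6 in regression, with Ly6g listed in no cell, and that of 6 dendritic cell markers to 22.1 and 17.2. The part of such cells in the results was not tested. Apoe, the gene that donors lacked, had a mean log2(RPKM + 1) of 0.30 at baseline and 11.86 in regression. Counted by cell, 9 of 125 at baseline and 112 of 113 after transplantation reached an RPKM of 1 for Apoe. Among the cells that did, its median RPKM was 5.34 at baseline and 5463 in regression. Whether these levels tell recipient cells from donor cells was not tested. With no animal named, each group is 1 sample. No p-value is given, SDs are spreads over cells, and intervals of shares are exact (Clopper-Pearson) 95% binomial intervals that cover counting error only.

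Some of these genes carry a known response element in their promoter, and these are shown first so that the genes described below can be set beside them. RefSeq promoter windows (GRCm38.p6, the assembly behind mm10, from 250 bases before to 50 after the start) were found for 28 of the 32 genes. The ER stress response element (ERSE: CCAAT, 9 free bases, CCACG), through which ATF6 is known to act, was present on either strand in 8 of the 28, against 0.137% of all 27025 genes with a window. A second form, ERSE-II (ATTGG, 1 free base, CCACG), in which the ATTGG is CCAAT read on the other strand, was present in Herpud1 and Dnajb11 and in 0.0444% of all genes. No member held both forms. The XBP1-type element TGACGTGG (0.714% of all genes) and the ATF4-type element TGATGNAAT (1.08%) had no match in the 28. The search for the ATF4-type element required its final T, so forms that end in another letter were not counted. The Herpud1 window printed below holds such a form on the other strand, which differs in that letter alone. The lack of a match therefore cannot tell whether members lack an ATF4-type element. A match describes letters in a window and shows no binding.

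The windows of Herpud1 (chr8:94386179-94386478, plus strand) and of Hspa5 (chr2:34771840-34772139, plus strand) are printed whole, because one gene had the largest difference of the set and the other is the best known target of the response; capitals mark ERSE-II in Herpud1 and ERSE in Hspa5.
Herpud1: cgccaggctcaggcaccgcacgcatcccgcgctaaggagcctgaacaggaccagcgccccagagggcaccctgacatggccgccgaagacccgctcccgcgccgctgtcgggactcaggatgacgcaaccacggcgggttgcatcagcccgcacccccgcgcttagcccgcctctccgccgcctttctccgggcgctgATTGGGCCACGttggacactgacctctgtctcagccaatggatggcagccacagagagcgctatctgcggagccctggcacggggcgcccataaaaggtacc
Hspa5: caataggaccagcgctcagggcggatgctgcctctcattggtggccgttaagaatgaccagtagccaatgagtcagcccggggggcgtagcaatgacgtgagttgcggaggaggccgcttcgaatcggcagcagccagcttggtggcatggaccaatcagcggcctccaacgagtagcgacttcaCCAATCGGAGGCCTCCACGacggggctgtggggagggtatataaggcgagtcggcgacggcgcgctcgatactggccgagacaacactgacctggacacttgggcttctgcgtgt

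The remaining matches are given as the site alone, read 5′ to 3′ on the strand that carries the motif, with the fixed letters in capitals. All are ERSE except that of Dnajb11, which is ERSE-II and begins 7 bases after the start. The group differences of these genes, given below, ran both ways. Hsp90b1 holds 2 sites.
Calr: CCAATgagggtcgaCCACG
Canx: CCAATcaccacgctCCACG
Creld2: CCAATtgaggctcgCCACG
Dnajb11: ATTGGcCCACG
Dnajc3: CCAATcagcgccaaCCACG
Hsp90b1: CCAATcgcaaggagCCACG
Hsp90b1: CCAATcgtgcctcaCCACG
Pdia6: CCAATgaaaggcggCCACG
Syvn1: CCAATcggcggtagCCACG

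Over the 32 genes, baseline and regression macrophages differed strongly in 1, Herpud1, and little in the average of the others. A difference is the mean log2(RPKM + 1) over regression cells minus that over baseline cells, and it understates the change of low genes. Of the 32, 29 reached the filter on low values, being listed by 5% or more of the cells in either group. Among these, 3 were lower in regression by 1 or more on the log2 scale (Herpud1, Pdia3 and Hspa5; 10.3%), against 3.17% of the 9299 genes that passed the same filter. P4hb alone was higher by 1 or more (3.45%, against 2.43% of genes). The shares were also read among the 3946 genes listed by 25% or more of the cells in either group. There 12.5% of 24 members were lower, against 7.37% of genes, and 4.17% were higher, against 5.6% of genes. Apart from Herpud1 these counts are close to those of genes at large. In all, 15 of the 29 were on the higher side in regression and 14 on the lower, against 52.8% of genes on the lower side. Their median difference was 0.03, and that of the 9299 genes was -0.02. Herpud1 had the 12th lowest difference of the 9299. The genes were chosen with earlier results of these data known, in which Herpud1 differed most. Its rank and its part in the 10.3% are therefore descriptions only.

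**Figure D1:**
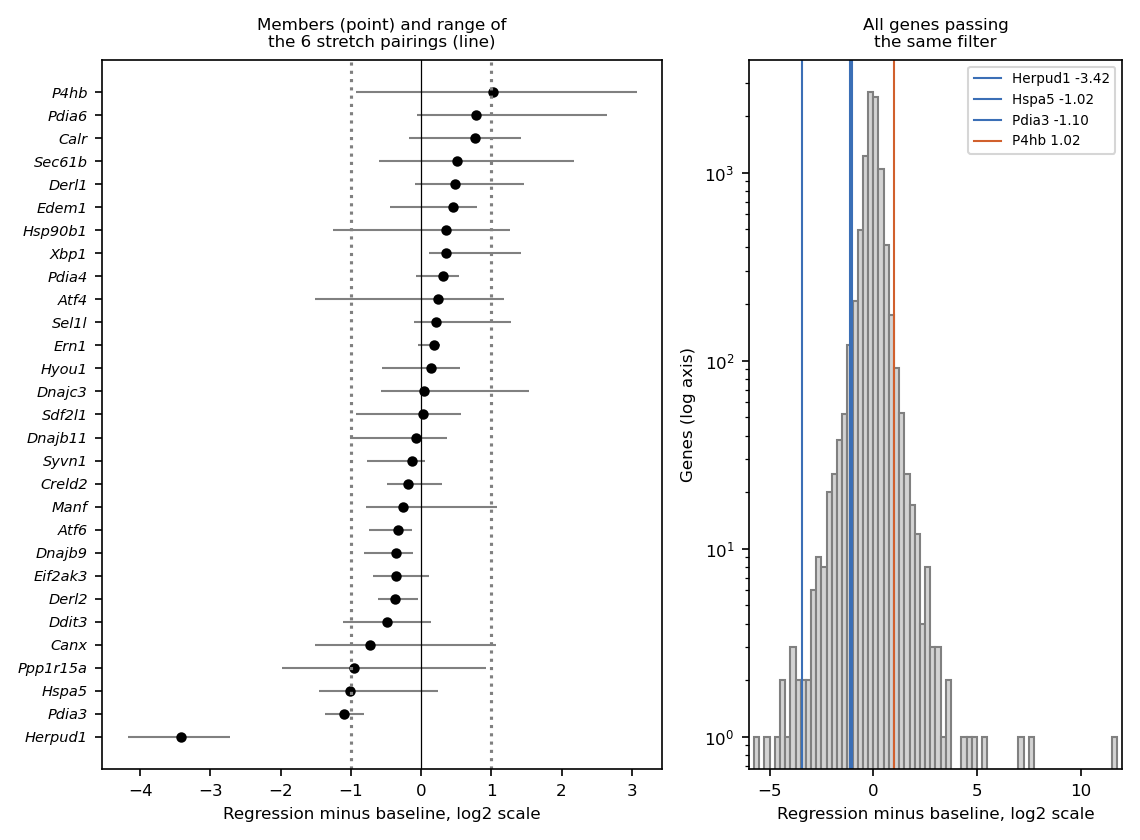
Left, difference between regression and baseline means on the log2(RPKM + 1) scale for the 29 genes that passed the filter (points), with the lowest and highest of the 6 pairings of a regression with a baseline stretch (lines) and marks at -1 and 1 (dotted). Right, the same difference for all 9299 genes as a histogram with a log count axis; Herpud1 at -3.42 lies apart from the other members, which run from -1.10 to 1.02.

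Herpud1 (gene 64209, chromosome 8, 94386438 to 94395377, plus strand, mm10) encodes an ER membrane protein with a ubiquitin-like domain that helps assemble the degradation complex around the ubiquitin ligase Syvn1 (HRD1). Cells of baseline 21 to 92 had a lowest, median and highest log2(RPKM + 1) of 0.00, 7.79 and 12.25, and cells of baseline 112 to 167 of 0.00, 7.08 and 11.90. In regression the values were 0.00, 0.00 and 8.60 for cells 1 to 20, 0.00, 0.00 and 10.23 for cells 93 to 111, and 0.00, 0.00 and 10.05 for cells 168 to 244. The median cell was thus at 0 in each regression stretch and above 7 in each baseline stretch, although the ranges of single cells overlapped. Baseline cells averaged 6.21 ± 3.97 (SD, 125 cells) and regression cells 2.79 ± 3.73 (SD, 113 cells), which differ by -3.42. Stretch means did not overlap: they were 6.33 and 6.06 at baseline and 2.15, 3.34 and 2.83 in regression, so that the 6 pairings ran from -4.18 to -2.72.

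Fewer regression cells listed Herpud1, and those that did held less of it. At baseline 98 of 125 cells listed it (78.4%, interval 70.2 to 85.3%), and in regression 45 of 113 did (39.8%, interval 30.7 to 49.5%). The share hardly varied within a condition, at 78.3% and 78.6% in the baseline stretches and 40.0%, 38.9% and 40.0% in the regression stretches. A value of exactly 0 was given for 24 baseline and 64 regression cells. Where it was listed, the median RPKM was 382 at baseline and 192 in regression, and the mean log2 value of listing cells was lower in regression by 0.95. Of the 113 regression cells, 22 lay above the baseline median. In order of mean level among the 32 genes, Herpud1 stood in place 4 at baseline and in place 12 in regression. A single-cell library without molecular identifiers cannot separate a cell without the transcript from one whose transcript was not captured.

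**Figure D2:**
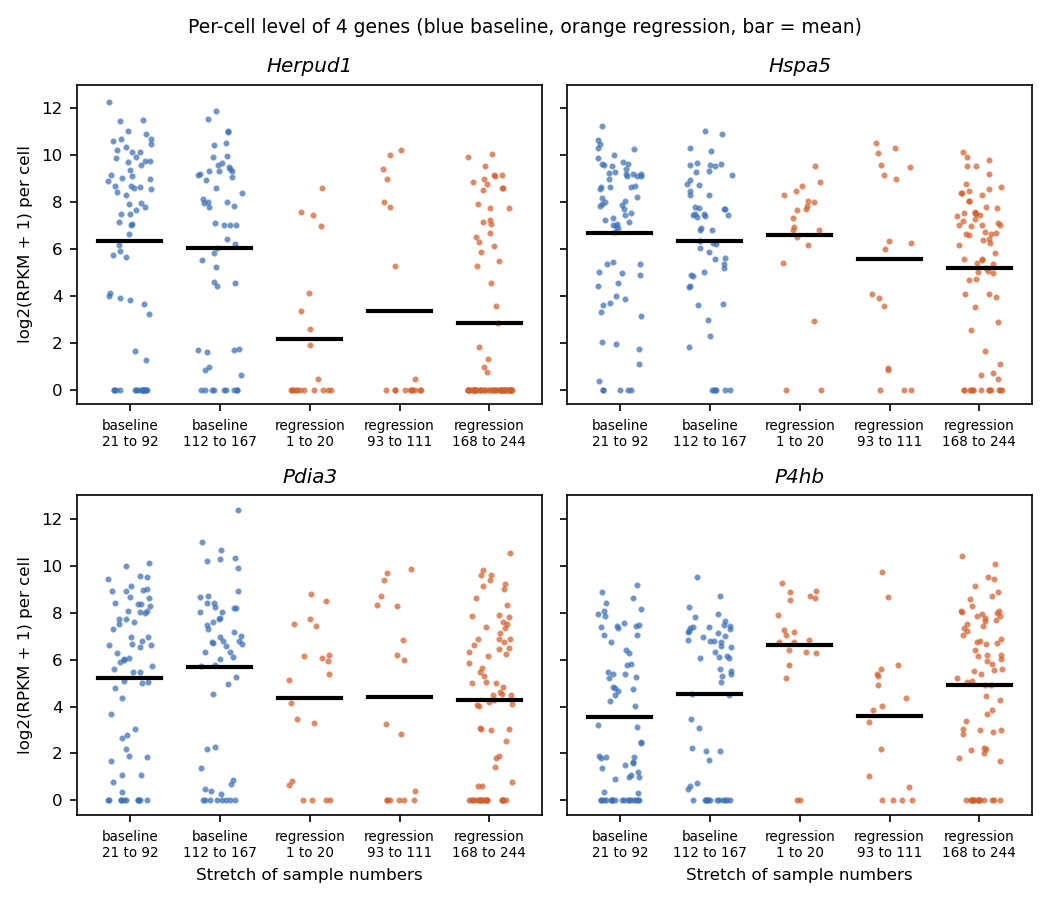
Level of Herpud1, Hspa5, Pdia3 and P4hb in each kept cell as log2(RPKM + 1), by stretch of sample numbers, with the mean as a bar (blue baseline, orange regression). For Herpud1 the 2 baseline means (6.33 and 6.06) lie above the 3 regression means (2.15 to 3.34), whereas P4hb is highest in regression cells 1 to 20 (6.63) and similar in baseline 21 to 92 (3.57) and regression 93 to 111 (3.60).

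The other members of ER-associated degradation showed no such gap. Syvn1, the ubiquitin ligase itself, had means of 0.67 at baseline and 0.54 in regression and was listed in 16.8% and 15.0% of cells. Sel1l, which holds that ligase in its complex, had means of 1.13 and 1.33. Edem1, a lectin that picks out misfolded glycoproteins, stood at 2.41 and 2.87. Derl1 and Derl2, membrane proteins of the exit channel, went opposite ways, with differences of 0.48 and -0.37. Derl2 was lower in regression in 6 of 6 stretch pairings, the smallest of which was -0.05. Herpud1 was therefore the 1 member of this group of 6 with a difference of 1 or more.

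Chaperones were among the most abundant of the 32 transcripts, and Hspa5 was the only chaperone past the mark of 1. Hspa5 (gene 14828, chromosome 2, 34771970 to 34777547, plus strand) encodes BiP, the ER Hsp70 that holds the sensors inactive in the unstressed cell. Its lowest, median and highest values were 0.00, 7.71 and 11.26 in baseline cells 21 to 92, and 0.00, 7.12 and 11.05 in baseline cells 112 to 167. They were 0.00, 7.50 and 9.54 in regression cells 1 to 20, 0.00, 6.11 and 10.50 in cells 93 to 111 and 0.00, 6.24 and 10.14 in cells 168 to 244. Cells of all stretches overlapped widely. Hspa5 averaged 6.53 ± 3.12 in baseline and 5.51 ± 3.27 in regression cells, which differ by -1.02, with 90.4% (interval 83.8 to 94.9%) and 79.6% (interval 71.0 to 86.6%) of cells listing it. Regression cells 1 to 20, at a mean of 6.60, lay between the baseline stretches (6.67 and 6.36), so 5 of 6 pairings were lower. Without regression cells 168 to 244 the difference was -0.42.

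Hsp90b1, the ER Hsp90 known as GRP94, averaged 6.22 in baseline and 6.58 in regression cells and was listed in 94.4% and 92.9% of them. The cochaperones and folding helpers stood lower and differed by less than 0.4 in size. Dnajb9 (ERdj4), a J-domain partner of BiP, had means of 1.24 and 0.88 and was listed in 32.8% and 18.6% of cells, and it was lower in 6 of 6 pairings (-0.81 to -0.12). When RPKM was averaged before taking logs, so that a few high cells count for more, the log2 ratio had the other sign (0.58). Dnajb11 (ERdj3) differed by -0.07, Dnajc3 (p58IPK), which also restrains PERK, by 0.05, and Hyou1 (GRP170), a nucleotide exchange factor of BiP, by 0.14. Sdf2l1, a partner of ERdj3, differed by 0.03, the secreted ER protein Manf by -0.25 and the isomerase-like Creld2 by -0.18. The log2 ratio also had the other sign for Manf (0.40) and Dnajb11 (0.11). Of these 9 chaperones and cochaperones, 4 were on the higher and 5 on the lower side in regression by the mean of logs, and 7 and 2 by the log2 ratio, so their direction depended on the scale.

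The lectin chaperones Canx and Calr, which hold glycoproteins while they fold, differed in opposite directions. Canx (calnexin) was the most abundant member in both groups, averaging 8.39 ± 2.41 in baseline and 7.66 ± 2.72 in regression cells. Its stretch means were 8.13 and 8.72 at baseline and 7.98, 9.19 and 7.20 in regression, so the highest and the lowest mean were both found in regression, and without cells 168 to 244 the difference was 0.16. Calr (calreticulin) had means of 4.57 ± 3.29 and 5.34 ± 3.08, listed in 73.6% and 83.2% of cells, and was higher in regression in 5 of 6 pairings.

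Disulfide isomerases form and rearrange the bonds between cysteines, and the 2 members past the mark of 1 went opposite ways. Pdia3 (gene 14827, chromosome 2, 121413775 to 121438687, plus strand), the isomerase ERp57 that works with the lectin chaperones, had lowest, median and highest values of 0.00, 6.03 and 10.10 in baseline cells 21 to 92 and 0.00, 6.72 and 12.39 in baseline cells 112 to 167. In regression these were 0.00, 5.25 and 8.80 in cells 1 to 20, 0.00, 4.61 and 9.85 in cells 93 to 111, and 0.00, 4.54 and 10.55 in cells 168 to 244. All 3 regression medians lay below both baseline medians. Pdia3 averaged 5.43 ± 3.46 in baseline and 4.33 ± 3.39 in regression cells, which differ by -1.10, and pairings ran from -1.37 to -0.81. At baseline 79.2% of cells listed it (interval 71.0 to 85.9%), against 69.0% in regression (interval 59.6 to 77.4%). Regression stretches hardly differed among themselves, with means of 4.36, 4.43 and 4.30. In cells with at least 2000 genes the difference was -0.72.

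P4hb (gene 18453, chromosome 11, 120560298 to 120573253, minus strand), the classical disulfide isomerase PDI and a subunit of collagen prolyl 4-hydroxylase, had lowest, median and highest values of 0.00, 3.14 and 9.19 in baseline cells 21 to 92 and 0.00, 5.83 and 9.52 in baseline cells 112 to 167. In regression they were 0.00, 6.95 and 9.28 in cells 1 to 20, 0.00, 3.93 and 9.74 in cells 93 to 111, and 0.00, 5.56 and 10.43 in cells 168 to 244. The stretches of a condition thus differed from each other as much as the conditions did. P4hb averaged 3.99 ± 3.14 in baseline and 5.01 ± 3.12 in regression cells, which differ by 1.02, while the means of the baseline stretches were 3.57 and 4.52. The share of cells listing it was 71.2% at baseline (interval 62.4 to 78.9%) against 81.4% in regression (interval 73.0 to 88.1%). The difference was 0.49 without baseline cells 21 to 92. Pdia6 had means of 3.62 and 4.41 and was highest in regression cells 1 to 20 (5.94), but its log2 ratio of mean RPKM was 0.02. Pdia4 (ERp72) differed by 0.31.

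The sensors and the transcription factors above these targets showed differences of less than 0.5 in size by the mean of logs. By the log2 ratio of mean RPKM some were larger, with the same signs. That ratio was -1.69 for Eif2ak3, 1.34 for Ern1, -0.86 for Atf6 and -0.79 for Ddit3. It was 0.49 for Xbp1 and 0.18 for Atf4. Ern1 was listed in 1 of 125 baseline cells and 7 of 113 regression cells, and it passed the filter only through regression. Its median RPKM in those 7 cells was 6.53, while the highest cell had a log2(RPKM + 1) of 7.21, so the ratio for Ern1 rests largely on 1 cell. Eif2ak3 was listed in 14.4% and 6.19% of cells, with 0.82 as its mean in baseline cells 21 to 92 and at most 0.31 in any other stretch. Atf6 had means of 1.50 and 1.17 and was lower in regression in 6 of 6 pairings (-0.74 to -0.13). Xbp1 had means of 2.72 ± 2.92 and 3.07 ± 3.17 with 55.2% and 56.6% of cells listing it, and it was the only member higher in regression in 6 of 6 pairings, by 0.12 to 1.42. Values per gene do not show how much of its mRNA was spliced. Atf4 had means of 3.19 and 3.44, and its pairings ran from -1.51 to 1.18. PERK acts on Atf4 mainly through translation, which RNA levels do not show. Ddit3 appeared in 21.6% of cells at baseline (interval 14.7 to 29.8%) and in 14.2% in regression (interval 8.32 to 22.0%), with means of 1.20 and 0.72.

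Targets of PERK and ATF4 were mostly near the floor. Chac1, which degrades glutathione, reached an RPKM of 1 in 0 of the 125 baseline and 0 of the 113 regression cells. For a count of 0 the share that 3 cells would make is 2.40% of baseline and 2.65% of regression cells, and the upper ends of the exact intervals are 2.91% and 3.21%. Trib3, a pseudokinase induced by CHOP, was listed in 0 baseline cells (exact interval up to 2.91%) and 1 regression cell. Asns, which makes asparagine, was listed in 4 and 2 cells. Ppp1r15a (GADD34), which reverses the block that PERK puts on translation and is also an early response gene, was listed in 59.2% and 48.7% of cells, with means of 3.60 ± 3.46 and 2.65 ± 3.03. Its mean was 4.44 in baseline cells 21 to 92, 2.57 in baseline cells 112 to 167, and 3.50, 2.47 and 2.46 in the regression stretches in order of number. It was thus the single member whose baseline stretches differed by 1 or more (3.40% of the 9299 genes did so), and without baseline cells 21 to 92 its difference turned from -0.95 to 0.08.

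Cells were freed by enzymatic digestion, so 20 immediate early and heat shock genes known to respond to it were read beside these values. Their mean log2(RPKM + 1) per cell was 4.52 over baseline and 4.13 over regression cells, on the same side as Herpud1. By stretch it was 4.98 in baseline cells 21 to 92 and 3.95 in baseline cells 112 to 167, and 4.73, 3.83 and 4.05 in the regression stretches. Ppp1r15a was likewise highest in baseline cells 21 to 92 and second highest in regression cells 1 to 20. Across stretches Herpud1 did not follow this order: it stood at 6.33 and 6.06 in the baseline stretches and was lowest in regression cells 1 to 20, where the list was second highest. From cell to cell within a stretch, however, Herpud1 moved with the list at baseline, with Pearson's r of 0.37 (69 cells) and 0.52 (56 cells), and in regression r was 0.12 (20 cells), 0.41 (18 cells) and 0.03 (75 cells). The mean of these r was 0.29 for Herpud1, 0.26 for Ppp1r15a, 0.17 for Hspa5, 0.15 for Pdia3 and 0.10 for P4hb. These r are given for the named genes only, without removing the number of genes that a cell listed. Whether they exceed those of genes at large cannot be told. The summed log2 level of the list ran from 24.5 to 147.5 over baseline cells and from 21.2 to 118.9 over regression cells. Of its 20 genes, 14 were lower in regression, against 52.8% of the 9299 genes, and no gene of it was unlisted in all cells. The part of this list in the difference of Herpud1 and of the other genes was not tested. Sec61b, a subunit of the translocon through which new proteins enter the ER, had means of 5.21 and 5.72 and was highest in regression cells 1 to 20 (7.35).

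**Figure D3:**
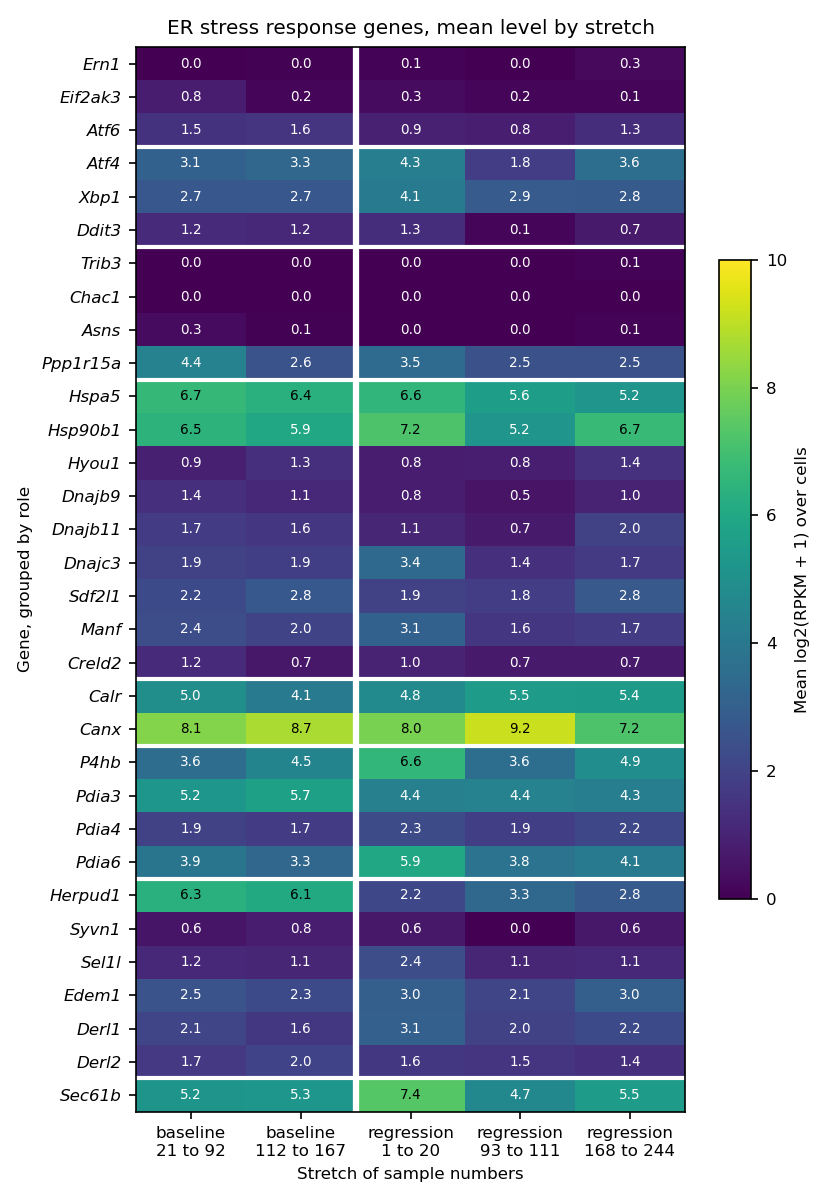
Mean log2(RPKM + 1) over the cells of each stretch (columns, baseline left of the white line) for the 32 genes (rows, grouped by role between white lines), printed to 1 decimal and coloured from 0 to 10. Herpud1 differs between the conditions, Ppp1r15a is high in baseline 21 to 92 (4.44), and several genes peak in regression 1 to 20 (Sec61b, 7.35).

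Across stretches, the order of conditions was mixed for most members. Of the 29, 5 were lower in regression in 6 of 6 pairings (Herpud1, Pdia3, Atf6, Dnajb9 and Derl2; 17.2%), against 16.4% of the 9299 genes, and 1 was higher in all (3.45%, against 9.56%). The other 23 went both ways, which includes Hspa5 and P4hb. The highest and lowest means of the 3 regression stretches, of which 2 hold only 20 and 18 cells, lay 1 or more apart for 16 of 29 members, against 26.2% of the 9299 genes. Among genes listed by 25% or more of the cells in either group they did so for 15 of 24 members (62.5%), against 49.4% of genes. Over 13 settings that give a value per gene, 17 of the 29 kept the sign of their difference and 12 turned in at least 1. The same count was not made for the 9299 genes, so whether it is usual for genes at large cannot be told.

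The average of the 32 genes within each cell differed little between the groups. The module mean, meaning the mean log2(RPKM + 1) over the 32 genes, averaged 2.64 ± 0.77 (SD) in the 125 baseline and 2.52 ± 0.81 (SD) in the 113 regression cells, which differ by -0.12. Its lowest, median and highest cells stood at 0.67, 2.64 and 4.20 at baseline and at 0.77, 2.48 and 4.26 in regression, so the groups overlapped almost wholly. Stretch means were 2.69 and 2.57 at baseline and 2.90, 2.18 and 2.50 in regression. Without Herpud1 the means were 2.52 and 2.51, and 3 of 6 pairings were higher and 3 lower. The median cell listed 14 of the 32 genes in either group. On the linear scale the 32 genes held a median of 0.426% of a baseline cell's summed RPKM and 0.340% of a regression cell's, or 0.374% and 0.333% without Herpud1.

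The module mean moved with the number of genes that a cell listed. Cells listed a median of 2457 and 2515 genes in the baseline stretches and of 2669, 1892.5 and 2399 in the regression stretches 1 to 20, 93 to 111 and 168 to 244. The regression stretches with the most and the fewest genes were thus also those with the highest and the lowest module mean. Within stretches, Spearman's rho between the module mean and genes per cell was 0.68 (69 cells) and 0.58 (56 cells) at baseline and 0.72 (20 cells), 0.85 (18 cells) and 0.71 (75 cells) in regression, given as a description since both come from the same library. In cells with 1095 to 2207 genes the module mean was 2.05 at baseline and 1.93 in regression. With 2210 to 2804 genes it was 2.61 and 2.45, and with 2813 or more it was 3.15 and 3.28.

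**Figure D4:**
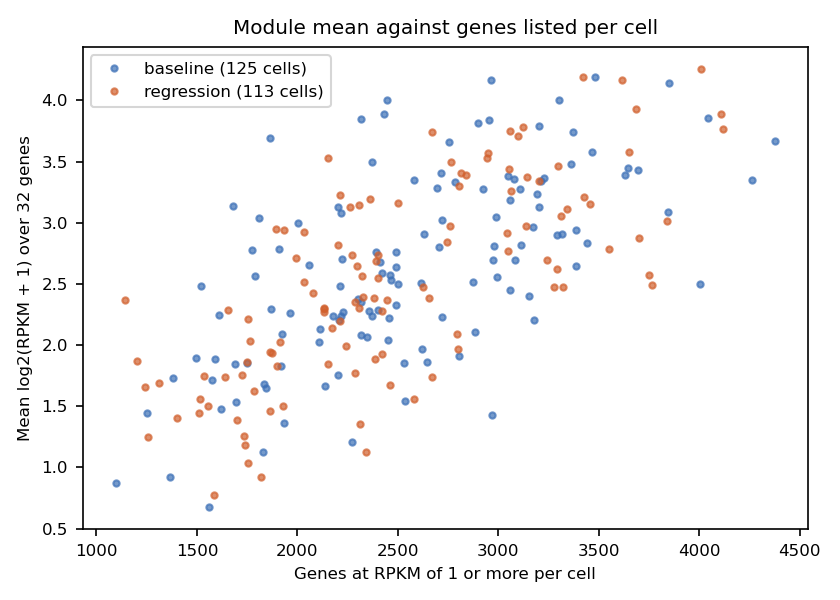
Mean log2(RPKM + 1) of the 32 genes in each cell against the number of genes listed in it at RPKM of 1 or more (blue, 125 baseline cells; orange, 113 regression cells). Cells of both groups lie along one rising band, with rho of 0.68 over all 238 cells, and overlap along its length.

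Single genes were read in the same 3 bins of genes per cell. Herpud1 was listed in 59.5%, 83.7% and 88.9% of baseline cells from the lowest to the highest bin and in 33.3%, 38.9% and 48.6% of regression cells, and its means were 4.46, 6.63 and 7.24 against 2.60, 2.60 and 3.22. It was thus lower in regression in every bin, and by more in the upper bins. Hspa5 had means of 5.70, 6.80 and 6.96 at baseline and 4.10, 6.30 and 6.41 in regression. Pdia3 stood at 5.15, 4.59 and 6.46 against 3.48, 3.74 and 5.95. P4hb stood at 2.43, 3.49 and 5.76 against 4.19, 5.33 and 5.67, so its groups lay close together among cells with the most genes.

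Members were only weakly related to each other from cell to cell. Over the 23 members that 25% or more of the cells listed in both groups, the mean over the 5 stretches of the within-stretch Pearson r had a median of 0.08 across 253 pairs, and 0.03 after genes per cell was regressed out. Over 2992 genes chosen in the same manner the medians were 0.04 and 0.00082. The highest pairs were among folding genes, Sdf2l1 with Pdia6 (0.33) and Hyou1 with Sdf2l1 (0.33), then Sdf2l1 with Calr (0.32) and Hspa5 with Manf (0.31). Herpud1 ran from -0.14 with Dnajc3 to 0.20 with Hspa5, with a median of 0.01 over 22 members. The 5 genes most like Herpud1 by this measure, out of 2984, were none of the 32 and none of the digestion list. They were the surface protein Cd83 (0.37), the stress-induced factor Atf3 (0.34), the cytochrome oxidase subunit Cox6a1 (0.32), Ifrd1 (0.30) and the chemokine Cxcl2 (0.30). Atf3 is in the wider list of response genes below, where it was also lower in regression in 6 of 6 pairings (-1.96). The digestion list holds only 20 chosen genes, so absence from it does not set a gene apart from that response. For Hspa5 the 5 genes most alike were Mrfap1 (0.35), Cox5b (0.32), Manf (0.31), Sh3bgrl (0.30) and Insig1 (0.29), of which Manf is a member. All of these values are low, and cells of a stretch share depth and handling.

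Among genes whose promoter window held an ERSE or ERSE-II, as printed above, 10 of 10 passed the filter. Their differences ran from -3.42 for Herpud1 to 0.79 for Pdia6, with a median of -0.10. In regression 4 were higher and 6 lower, against 52.8% of the 9299 genes on the lower side. The 15 measured genes with a window but neither element ran from -1.10 to 1.02, with a median of 0.18. Herpud1 and Dnajb11, which share ERSE-II, differed by -3.42 and -0.07. The site begins 52 bases before the start in Herpud1 and 7 bases after it in Dnajb11. The difference between genes with and without these elements was not tested.

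Beyond the 32 genes, 86 other genes of ER protein handling and of the response were in the table, of which 74 passed the filter. Of these, 32 were on the higher and 42 on the lower side in regression, against 52.8% of the 9299 genes on the lower side. In each direction 2 passed the mark of 1 (against 2.43% of genes higher and 3.17% lower), and the median was -0.07. Highest were Cebpb (1.99), a transcription factor with many other inducers, and Ero1l (1.14), the oxidase that recharges disulfide isomerases and is also induced by hypoxia; both were higher in 6 of 6 pairings. Mcl1, a survival factor, stood at 0.97 and Nupr1, a stress-induced nuclear protein, at 0.88, each higher in 4 of 6. Lowest were Atf3 (-1.96), a factor that ATF4 induces and that also responds to other stress, and Ssr1 (-1.77), a subunit of the translocon-associated complex, both lower in 6 of 6. Stt3a, a catalytic subunit of the oligosaccharyltransferase, stood at -0.95 and the signal peptidase subunit Spcs3 at -0.90. Among 14 measured genes of ER-associated degradation in this list, 10 were lower and 4 higher, none by 1 or more, with a median of -0.18. Of all 9299 genes, 52.8% were on the lower side.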

How the data were processed

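RPKM values were made by the authors and deposited as 1 table of 24475 genes and 244 libraries, 1 cell each. Per the labels' protocols, cells were captured on a C1 chip, with SMARTer cDNA and Nextera XT libraries; that text speaks of islet cells, whereas the other labels say macrophages. The submitters' processing notes name mm10, CASAVA 1.8.2 and FastQC; the aligner, annotation and counter were not stated there or in the labels. SMARTer libraries carry no molecular identifiers.

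Columns were matched to samples by the number in the title. Libraries correlating above 0.9 were averaged, and cells in which 1000 genes or more reached an RPKM of 1 entered. Values were compared as log2(RPKM + 1), with Python 3.11.15, numpy 2.4.6 and pandas 2.3.3. No count model suits this unit, and no test was made because each group is 1 sample. The 32 genes and all lists were chosen with earlier results of these data known. All 32 are named; of the wider list, the 4 highest and 4 lowest; and the 5 genes most correlated with Herpud1 and Hspa5. Other genes were named after their values were seen. The list symbols Igj and Trac were not found in the table. Of the lists for other cell types, those of B cells, T cells, smooth muscle and endothelial cells had 0 cells with 3 markers in either group, and that of fibroblasts 2 baseline cells and 0 regression cells. Depth was read where 2 sets of genes with 1 transcript gave the same value within 10%. Doublets were not called. Positions are from GENCODE vM21 and promoters from RefSeq on GRCm38.p6. The computation was tested on simulated data in which baseline values were multiplied by known factors. Values of 0 stayed at 0 there, so a change in the share of cells at 0, as seen for Herpud1, was not simulated.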

Additional observations from a re-analysis of the deposited data

How the results depend on the processing

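Each of 15 alternatives was tried. Herpud1 was lower in regression by more than 1 in all 13 that give a value per gene, from -2.12 (log2 ratio of mean RPKM) to -4.67 (pseudocount of 0.1), and Pdia3 was lower in all 13, from -0.72 to -1.42. The count of members lower by 1 or more, 3 in the values reported, was 1 (Herpud1) with a pseudocount of 10 and with cells of at least 2000 genes, and 2 to 4 otherwise. The count higher by 1 or more, 1 as reported, was 0 with a pseudocount of 10, with no filter on cells, with cells of at least 2000 genes, with each cell rescaled to a sum of 1000000 and without regression cells 1 to 20. It was 3 with a pseudocount of 0.1, and 2 without baseline cells 21 to 92 and without regression cells 168 to 244. By that log2 ratio the members past 1 were Herpud1, Eif2ak3 and Ppp1r15a (lower) and Ern1 (higher). The share of all genes past 1 was computed only for the values reported and for genes listed by 25% or more of the cells in either group. Under the other alternatives these counts describe the members alone, since a setting can change the share for all genes. The module difference moved by more than the SD between the baseline stretches (0.083) only with cells of at least 2000 genes (-0.014); without Herpud1 it was 0.12 there and -0.11 without regression cells 1 to 20.

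The median difference of the wider list was -0.032 with a pseudocount of 10, -0.20 with 0.1, -0.13 with no filter on cells, -0.047 with cells of at least 2000 genes, -0.14 after rescaling, -0.064 under the log2 ratio, -0.085 with near copies kept apart, -0.015 within bins of genes per cell, -0.054 with no filter on low values and -0.10 at 25% of cells. When a stretch was left out it was -0.086 without regression cells 1 to 20, -0.17 without 168 to 244 and 0.0021 without 93 to 111, and -0.024 and -0.038 without baseline cells 21 to 92 and 112 to 167. The causes were not tested. No paired analysis was possible because each group is 1 sample.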
